A study of Mus musculus with 6 samples.

Results

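The microRNAs miR-221 and miR-222 are made from neighbouring genes on the mouse X chromosome, and their precursors mmu-mir-221 and mmu-mir-222 were taken by name from the small RNA table, as 2 of its 855 precursors. Small RNA was sequenced from retinas of 4-week-old mice on a Mixed C57BL/6J - SJL background. Control mice carried Dicerfl/fl, iCre75-, and conditional knockout mice (cKO) carried Dicerfl/fl, iCre75+, so both groups had the floxed Dicer1 alleles and only the cKO group had the Cre transgene, which acts in rod photoreceptors. Each group had 3 libraries, with RNA of 6 retinas pooled for each. The labels do not tie pools to mice, so p values measure the spread between these pools, which may be technical.

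Dicer1 encodes the RNase that cuts the hairpin of most miRNAs into the mature strand, which then guides repression of mRNAs that match its seed, the bases near its 5′ end. miR-221 and miR-222 are a clustered pair known from endothelial cells, vascular smooth muscle and glia, where they repress the receptor tyrosine kinase Kit and the cell-cycle inhibitor Cdkn1b and have been tied to proliferation and vessel growth. The series describes the deletion as specific to rods, and these cell types are not rods. The libraries are of whole retina, so none of the values below shows which cells the reads came from, and fewer cells of a type and less RNA per cell cannot be told apart.

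The sequences are shown because the members share a seed but differ over most of the rest, which bears on whether their values are separate measurements. They are RefSeq's (GRCm38.p6, minus strand), written 5′ to 3′, with the seed (bases 2 to 8) in capitals.
miR-221-3p: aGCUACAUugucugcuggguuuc
miR-222-3p: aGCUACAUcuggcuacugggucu
miR-221-5p: aCCUGGCAuacaauguagauuucugu
The 3p strands, each of 23 bases, were identical over the first 8 bases, and 11 of 23 positions (47.8%) matched when they were laid side by side without gaps. The longest run that the mature 3p strands shared was these 8 bases. miR-222-5p is not shown.

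The whole precursors follow, with the mature strands above in capitals, since reads were counted per precursor and both arms enter 1 value.
mir-221 hairpin: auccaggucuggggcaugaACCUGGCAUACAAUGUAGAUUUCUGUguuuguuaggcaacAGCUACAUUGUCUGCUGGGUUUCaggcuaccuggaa
mir-222 hairpin: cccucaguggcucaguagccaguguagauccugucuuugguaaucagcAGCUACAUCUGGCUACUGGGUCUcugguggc
The mir-221 hairpin has 95 bases and the mir-222 hairpin 79. No window of 20 bases from either matched, allowing 1 mismatch, another hairpin among the 1005 searched, the other member included. RefSeq lists no gene between the members and none that spans both.

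Of 1738 mature mouse miRNAs in the RefSeq table, 3 carried the seed GCUACAU: the 3p strands of both members and miR-1928. The site in an mRNA that pairs with this seed reads ATGTAGC, and it was searched on the transcript strand of the longest 3′ UTR of each gene (GENCODE M21). The known targets held it, shown here in capitals.
Cdkn1b site: ctctaaaagcattggATGTAGCattgcgca
Kit first site: aatgatgggagatatATGTAGCaagactag
Kit second site: tttgtaaatattgaaATGTAGCaataatgt
Such a match is a description only. Among UTRs at least as long as that of Cdkn1b (3439 bases), 24.6% held the site within the same length, and for Kit (2177 bases) the share was 15.9%. The mRNAs themselves were not analysed here.

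Both members ranked near the middle of the 461 precursors that were abundant enough to test, at places 206 to 240 of all 855 in single libraries. Library totals worked out from the deposited values were 5480940 to 7478237 reads, and the members held 187 to 355 of them per library. In RPKM, reads scaled to precursor length and library total, mir-221 stood at 263, 318 and 318 in control 1 to 3 and at 391, 540 and 618 in cKO 1 to 3. The precursor mir-222 stood at 330, 345 and 371 in control 1 to 3 and at 424, 591 and 587 in cKO 1 to 3. In both members every cKO library lay above every control library, and cKO 1 was the lowest of the cKO libraries. The gap between the groups was 73.0 RPKM for mir-221 and 53.0 RPKM for mir-222.

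In reads, mir-221 had 187, 208 and 213 in control and 257, 355 and 322 in cKO libraries, and mir-222 had 195, 188 and 207 in control and 232, 323 and 254 in cKO libraries. The corresponding counting error was 5.31% to 7.31% of a value. Among control libraries the coefficient of variation was 10.5% for mir-221 and 5.95% for mir-222. Among cKO libraries it was 22.4% and 17.8%. Reads were amplified by PCR and carry no molecular identifiers, so counting error and intervals here cover counting only.

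**Figure D1:**
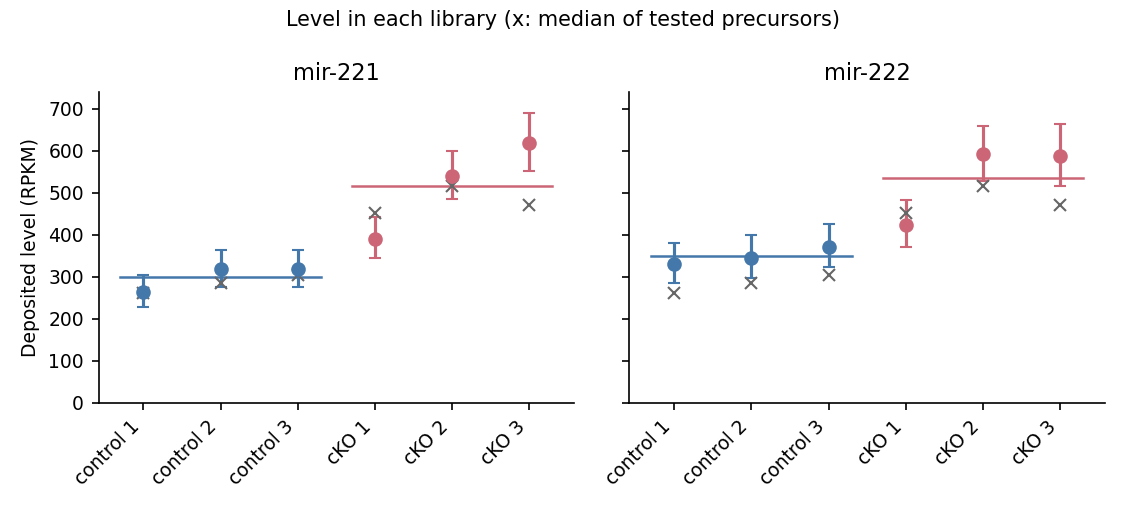
Deposited level of mir-221 and mir-222 in RPKM in each of the 6 libraries. Points carry exact Poisson 95% intervals, which cover counting error only, horizontal lines are group means, and crosses mark the median of the 461 tested precursors in the same library. In RPKM both members and the median precursor are higher in cKO libraries; scaled by the median of ratios, the groups of both members overlap.

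The first comparison was that of cKO with control retina, fitted over all 461 precursors whose mean reached 10 RPKM. As the values were deposited, both members rose. The level of mir-221 averaged 299 ± 31.4 RPKM over control and 516 ± 116 RPKM over cKO libraries (SD, n = 3 per group). Its log2 fold change was 0.76 (95% interval 0.34 to 1.19, SE 0.19; adjusted p = 0.0056 by limma). The level of mir-222 averaged 349 ± 20.7 RPKM over control and 534 ± 95.3 RPKM over cKO libraries (SD, n = 3 per group). Its log2 fold change was 0.60 (95% interval 0.22 to 0.98, SE 0.17; adjusted p = 0.011 by limma). These are fitted rises of 1.70-fold and 1.51-fold. The call of mir-222 ended without cKO 2, at 0.52 (limma adjusted p = 0.053), and that of mir-221 held in each of the 6 fits that left out a library.

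This rise was the usual one in these libraries. As deposited, 69.4% of tested precursors rose past the same threshold, and in 71.6% every cKO library lay above every control library. The median tested precursor rose 1.67-fold, a log2 fold change of 0.74. The log2 fold change of mir-221 stood 0.024 above that median, at the 51.4th percentile of tested precursors, and that of mir-222 stood 0.14 below it, at the 33.4th percentile. The rise of these members in RPKM therefore sets neither apart from the other precursors. An RPKM value depends on its library's total, and mir-182, the most abundant photoreceptor miRNA, stood at 7089880 to 7654310 RPKM in control and at 3699200 to 4511810 RPKM in cKO libraries.

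**Figure D2:**
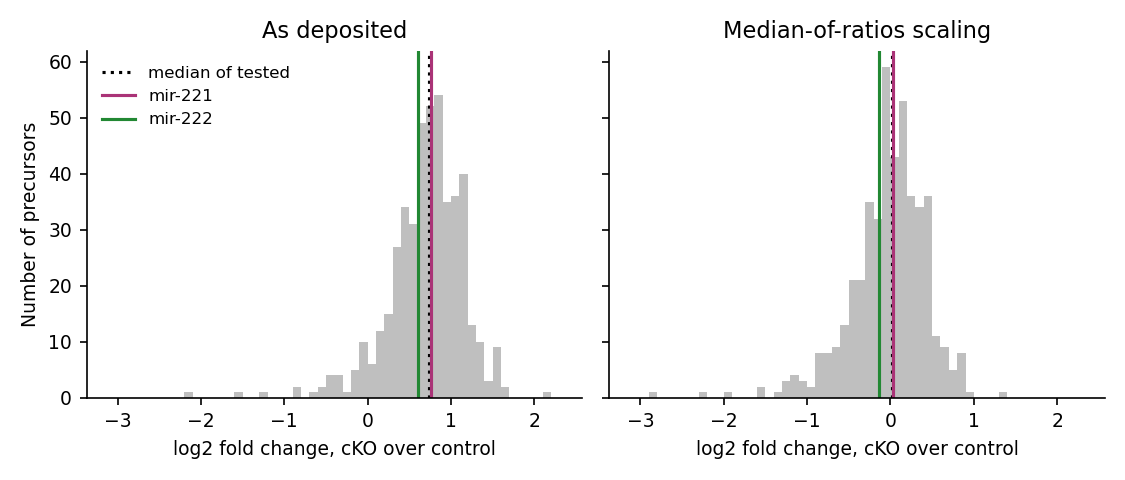
Number of tested precursors (461) by log2 fold change, cKO over control, as deposited and after median-of-ratios scaling. Coloured lines mark mir-221 and mir-222 and the dotted line marks the median of tested precursors. Under both scalings mir-221 lies at the median and mir-222 lies slightly below it.

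With libraries scaled by the median of ratios, so that the typical precursor is level between them, neither member passed the test. The scaled level of mir-221 was 358, 421 and 378 RPKM in control 1 to 3 and 315, 404 and 477 RPKM in cKO 1 to 3. That of mir-222 was 449, 458 and 442 RPKM in control 1 to 3 and 342, 442 and 453 RPKM in cKO 1 to 3. On this scale the groups overlapped in both members, and cKO 1 was the lowest of the 6 libraries in both. The log2 fold change of mir-221 was 0.030 (95% interval -0.35 to 0.41; limma adjusted p = 0.92), and that of mir-222 was -0.14 (95% interval -0.47 to 0.19; limma adjusted p = 0.63). The intervals allow a fold between 0.782 and 1.33 for mir-221 and between 0.724 and 1.14 for mir-222, so a small change in either direction was not detectable here.

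The other ways of setting the library scale also gave no call for either member. With totals that leave out the 10 most abundant precursors, mir-221 stood at 0.25 and mir-222 at 0.088 on the log2 scale, against a median of 0.23 over tested precursors. With totals that leave out the reads at mir-182, the values were 0.14 and -0.025, against a median of 0.12. Quantile normalization gave -0.049 and -0.26, against a median of 0.042. Neither member passed under any of these scalings, with limma adjusted p from 0.25 to 0.92. The share of tested precursors called in either direction was 12.1% with median-of-ratios scaling, 8.89% with quantile normalization, 18.7% without the 10 most abundant precursors and 12.1% without the reads at mir-182.

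**Figure D3:**
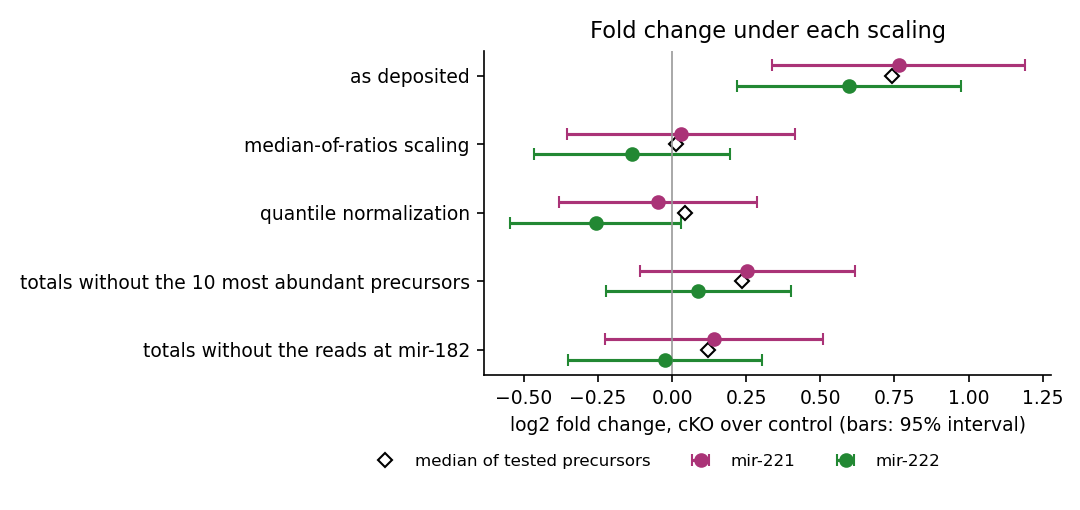
Log2 fold change of mir-221 and mir-222, cKO over control, under 5 ways of scaling the libraries, with 95% limma intervals, and the median of the 461 tested precursors as open diamonds. Intervals lie above 0 as deposited and include 0 under the other 4 scalings, while mir-221 stays next to the median in all but quantile normalization.

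Together the members took 51.1, 57.4 and 59.5 RPM, the RPKM scale without the length, in control 1 to 3 and 70.6, 98.1 and 105 in cKO 1 to 3. In RPM, Wilson 95% intervals ran from 46.2 to 65.4 over control libraries and from 64.6 to 114 over cKO libraries. The cKO libraries all lay above the control libraries, with a mean of 91.3 ± 18.2 against 56.0 ± 4.38 (SD, n = 3 per group). The two-sided exact permutation test gave p = 0.1, the smallest that 3 libraries against 3 allow. As a percentage of library reads, the share was 0.0035 points higher in cKO libraries, and 0.00065 points higher when the reads at mir-182 were left out of the totals (exact permutation p = 0.6).

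Rank within a library does not depend on the library total. Among the 461 tested precursors mir-221 ranked 228, 218 and 224 from the top in control 1 to 3 and 240, 226 and 213 in cKO 1 to 3. The groups overlapped for mir-221 (exact two-sided permutation p = 0.8). The precursor mir-222 ranked 206, 208 and 210 in control and 237, 220 and 216 in cKO libraries, so it stood lower in the order in 3 of 3 cKO libraries (exact permutation p = 0.1). How many of the 461 precursors part by rank in this way was not counted. By mean level over the 6 libraries mir-222 was at rank 222 with 441 RPKM and mir-221 at rank 228 with 408 RPKM. The precursors next to mir-222 were mir-322 at 442 and mir-344-1 at 439 RPKM, and those next to mir-221 were mir-326 at 408 and mir-10b at 400 RPKM. None of these neighbours differed from its member by more than the spread over libraries, whose SD was 117 to 162 RPKM.

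The balance between the members was tested as the ratio of mir-222 to mir-221 within each library, a value on the per-length RPKM scale that no scaling of the library alters. It was 1.25, 1.09 and 1.17 in control 1 to 3 and 1.09, 1.09 and 0.949 in cKO 1 to 3. The order of the members depends on the division by hairpin length, which is shorter for mir-222. Per length, mir-222 exceeded mir-221 in every library but cKO 3, and the counting interval (Wilson, 95%) excluded 1 in control 1 alone, at 1.03 to 1.53. In reads, mir-222 held 51.0%, 47.5% and 49.3% of those of the pair in control 1 to 3 and 47.4%, 47.6% and 44.1% in cKO 1 to 3, so it exceeded mir-221 in control 1 alone. The Wilson interval of this share included equal reads in every library but cKO 3, at 40.1% to 48.2%. Length is constant, so the comparison between the groups is the same on both scales. In log2 units the ratio averaged 0.22 ± 0.10 over control and 0.057 ± 0.12 over cKO libraries (SD, n = 3 per group), a difference of -0.17 with overlapping groups (exact two-sided permutation p = 0.2). A shift in the balance of the members was therefore not shown. With 3 libraries against 3 this test cannot give p below 0.1, so it could not have shown 1 at any depth. Leaving out a library moved the difference between -0.22 and -0.10.

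**Figure D4:**
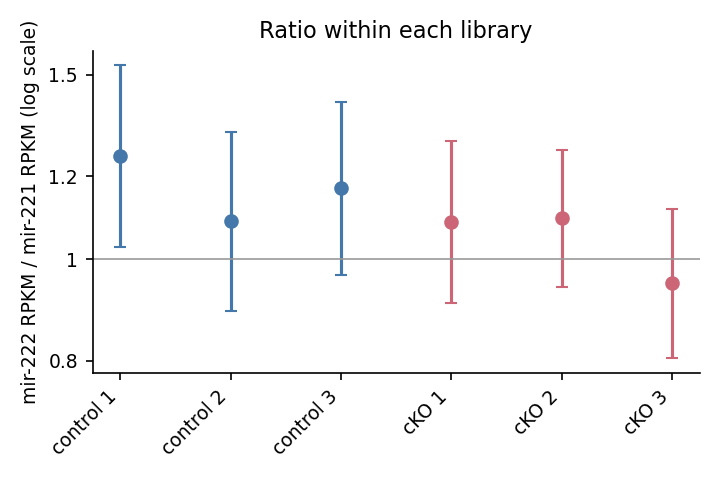
Ratio of mir-222 to mir-221 in RPKM (log axis) in each of the 6 libraries, with 95% intervals from the read counts (Wilson, counting error only). Ratios run from 1.09 to 1.25 in control and from 0.949 to 1.09 in cKO libraries, and the groups overlap.

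The summed level of both members was next compared with 12 other miRNAs within each library. These comparisons do not depend on the library total, but a ratio shows only unequal change and not which side moved. Groups did not overlap in 4 of the 12 ratios, each with an exact permutation p of 0.1 and an adjusted p of 0.3 over the 12. The share of all tested precursors with such a ratio was not counted, so 4 of 12 is a description only. None of the 12 ratios could pass the correction in this design.

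Among vascular miRNAs, the pair stood lower against mir-126, the miRNA of endothelial cells, in every cKO library. The summed level of the pair was 10.8%, 9.64% and 7.69% of that of mir-126 in control 1 to 3 and 4.32%, 6.56% and 6.75% in cKO 1 to 3. The log2 ratio averaged -3.43 ± 0.25 over control and -4.12 ± 0.36 over cKO libraries (SD, n = 3 per group), a difference of -0.69, lower in 3 of 3 cKO libraries (exact two-sided permutation p = 0.1). Leaving out any 1 library gave a difference between -0.82 and -0.48, and each member alone gave groups that did not overlap, at -0.60 for mir-221 and -0.77 for mir-222. The precursor mir-126 itself stood at 5495, 6877 and 8953 RPKM in control and at 18854, 17256 and 17863 RPKM in cKO libraries.

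In the other vascular comparisons the groups overlapped. Against mir-143 and mir-145a, miRNAs of smooth muscle cells and pericytes, the difference of the log2 ratio was 0.038 (range over fits without 1 library -0.15 to 0.23) and -0.095 (range -0.24 to 0.0013). Against mir-199a-1, known from mesenchymal cells, it was 0.22 (range 0.10 to 0.35). The precursor mir-214 had 4 to 12 reads per library, too few to read its ratio.

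Against glial miRNAs the groups overlapped in 3 of 4 ratios. Relative to mir-9-2 and mir-125b-1, which are expressed in Müller glia, the differences were -0.042 (range -0.23 to 0.17) and -0.024 (range -0.082 to 0.056), with overlapping groups. Relative to mir-146a, an inflammation-linked miRNA, the difference was 0.057 and the sign turned when single libraries were left out (range -0.32 to 0.27). Relative to mir-21a, which is linked to injury and reactive glia, they did not overlap. The pair averaged 8.95% ± 0.652 of the level of mir-21a over control and 16.1% ± 3.57 over cKO libraries (SD, n = 3 per group), a difference of 0.82 in log2 units, higher in 3 of 3 cKO libraries (exact two-sided permutation p = 0.1). The level of mir-21a was 7202 to 7287 RPKM in control and 6375 to 6799 RPKM in cKO libraries.

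The last comparisons were with miRNAs of retinal neurons. Against mir-181a-2 of the inner retina the difference of the log2 ratio was -0.033 (range -0.12 to 0.11), with overlap. Against mir-124-3, a miRNA of neurons, it was 0.75, and against mir-182 of photoreceptors it was 1.54, both higher in 3 of 3 cKO libraries (exact two-sided permutation p = 0.1 each). For mir-222 alone the groups overlapped against mir-124-3 (difference 0.67; exact two-sided permutation p = 0.2). In all, the ratio of the pair was lower in cKO libraries against mir-126 and higher against mir-21a, mir-124-3 and mir-182, and a difference from the other 8 was not shown.

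**Figure D5:**
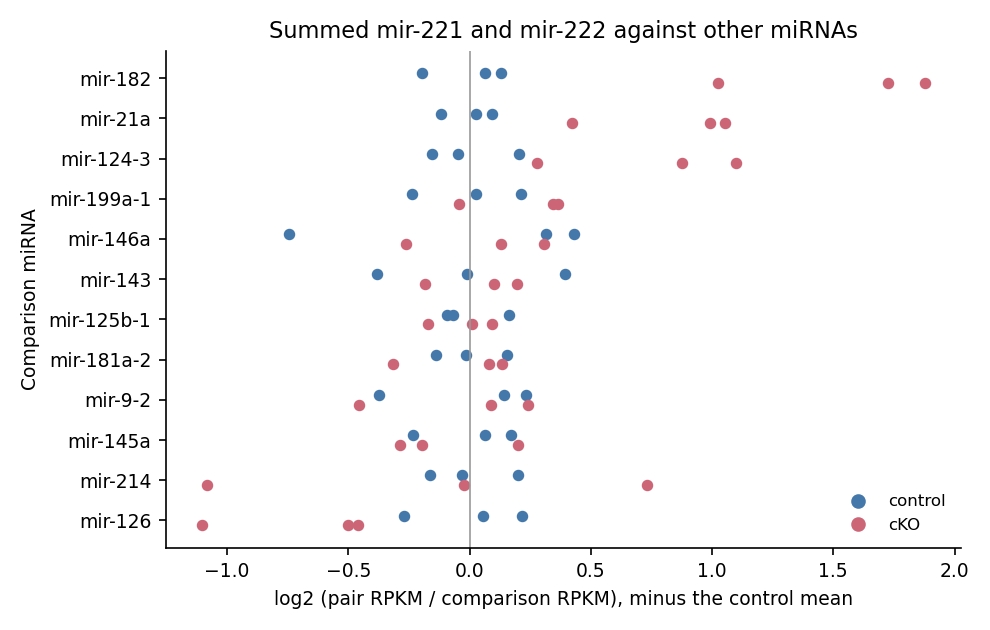
Log2 ratio of the summed mir-221 and mir-222 level to each of 12 comparison miRNAs, minus its mean in control libraries, with 1 point per library. The cKO points lie wholly to the right of the control points for mir-182, mir-21a and mir-124-3, wholly to the left for mir-126, and overlap for the other 8.

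The 2 miRNA groups that the pair is known with were also counted in the test as deposited. Of 7 vascular miRNA precursors 6 reached the level needed for the test, and all 6 rose, beside 69.4% of all tested precursors. The median of their log2 fold changes was 0.55, beside 0.74 over all tested precursors. The precursors mir-199a-1, mir-199a-2 and mir-199b, which share a mature strand, stood within 0.45 to 0.46 and are not separate measurements. After median-of-ratios scaling the vascular median was -0.18, mir-126 rose, by 0.63 (limma adjusted p = 0.020), and no other vascular precursor passed. Of 9 glial and glial-activation precursors, all tested, 5 rose, namely the 3 copies of mir-9 at 0.72 and the copies mir-125b-1 at 0.70 and mir-125b-2 at 0.72. Copies of 1 miRNA are not separate measurements, so 5 of 9 is not read as differing from the 69.4% over all tested precursors. The median of these 9 was 0.72 beside 0.74. The other 4 did not pass, at -0.14 for mir-21a, 0.62 for mir-146a, 0.10 for mir-155 and 1.45 for mir-31, which is also a lens and cornea marker. After median-of-ratios scaling mir-21a fell, by 0.88 (limma adjusted p = 0.0021), and no other of the 9 passed. Of 3 oligodendrocyte precursors, which would mark myelinated nerve in a dissected retina, mir-338 rose at 0.69 and mir-219-1 and mir-219-2 did not pass, at 0.17 and 0.070. After median-of-ratios scaling none of these 3 passed.

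The third miRNA with the seed, mir-1928, was measured at 31.9, 344 and 171 RPKM in control 1 to 3 and at 90.5, 246 and 161 RPKM in cKO 1 to 3. Its groups overlapped and it did not pass, at 0.30 on the log2 scale (SE 0.70; adjusted p = 0.70 by limma). Its level varied more among control libraries than that of either member. The X chromosome held 81 further precursors in the RefSeq annotation, of which 33 were tested. Of these 18 rose and 0 fell as deposited, with a median log2 fold change of 0.68, beside 69.4% and 0.74 over all tested precursors. After median-of-ratios scaling 0 of these 33 rose and 3 fell, with a median of -0.057, beside 10 that rose and 46 that fell of all 461 and a median of 0.014.

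Likeness was measured as the root mean square difference, over the 6 libraries, of log2(RPKM + 1) centred on each precursor's own mean, among precursors whose mean reached 100 RPKM. For mir-221 the closest were mir-324 at 0.061, mir-181b-1 at 0.073 and mir-181b-2 at 0.074. For mir-222 they were mir-181d at 0.072, mir-181b-2 at 0.074 and mir-181b-1 at 0.075. The 2 mir-181b precursors make the same mature miRNA and are not separate measurements. The members were not each other's nearest precursors: at a distance of 0.12, mir-222 came 9th of 305 for mir-221, and mir-221 came 18th of 305 for mir-222. Counting error, 5.31% to 7.31% of a value in each member, adds to the distance between them. It is far smaller in mir-181d and mir-181b-1, with means of 108572 and 142409 reads. It is not smaller in mir-324, the closest to mir-221, which averaged 169 reads beside 233 for mir-222. The order of distances is a description only, and whether the members vary apart was not tested. The median distance over all 305 was 0.27 for mir-221 and 0.25 for mir-222.

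Summed marker levels of other cell types are given as deposited, in RPKM, and their part in the values of the pair was not tested. After median-of-ratios scaling no precursor of the red cell, leukocyte and microglia, pigment epithelium, lens and cornea or muscle lists passed the test. On that scale 3 of 3 photoreceptor precursors fell, as did 3 of 5 of neurons and inner retina, all 3 of them copies of mir-124. Red cell precursors (3 of 3 detected) summed to 16553 to 19359 RPKM in control and 26668 to 31080 RPKM in cKO libraries. Nearly all of this sum was mir-486, at 16387 to 19128 RPKM in control and 26306 to 30542 RPKM in cKO libraries. As deposited 2 of the 3 red cell precursors rose, and mir-144 overlapped between the groups and did not pass. Those of leukocytes and microglia (4 of 4 detected) summed to 2115 to 2588 RPKM and 3741 to 5654 RPKM. Most of this sum was mir-150, at 1819 to 2312 RPKM in control and 3248 to 5126 RPKM in cKO libraries. As deposited mir-150 and mir-142 rose, and mir-155 overlapped between the groups and did not pass. The precursor mir-223 was below the level needed for the test. Pigment epithelium precursors (2 of 2 detected) summed to 655315 to 758334 RPKM and 1197360 to 1475670 RPKM. Lens and cornea precursors (3 of 3 detected) summed to 2499 to 54376 RPKM and 25397 to 63458 RPKM, with overlap. Those of muscle (4 of 4 detected) summed to 587 to 1021 RPKM and 990 to 1546 RPKM, again with overlap. The photoreceptor precursors (3 of 3 detected) summed to 7568210 to 7894240 RPKM in control and 4037710 to 4911540 RPKM in cKO libraries. Those of neurons and inner retina (5 of 5 detected) summed to 5200620 to 5612780 RPKM and 8319310 to 8945380 RPKM, so these retinal lists were the most abundant in every library, as fits the label of retina. The neuron and inner retina list holds only copies of mir-181a and mir-124, which are not separate measurements. Its mir-181a copies had near-equal means of 1842540 and 1842270 reads, so its sum may count a read at more than 1 copy. This list did not move together. As deposited its 2 mir-181a precursors rose, each at 0.71 on the log2 scale, and its 3 mir-124 copies did not pass, at -0.07. After median-of-ratios scaling the mir-124 copies fell, by 0.81 (limma adjusted p = 0.0046 to 0.0047).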

How the data were processed

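The authors deposited RPKM values for 855 miRNA precursors in 6 small RNA libraries. The submitters' processing notes name Bowtie and mm9. The aligner's version, the annotation and the handling of multi-mapping reads were not given in the sources used here. Reads summed over precursors were 1.55 to 1.86 times the library total, so some reads count at several precursors. Per the labels' protocols, all libraries shared a sequencing run, so run and genotype are not confounded. The reference used here is GRCm38, so no coordinates are printed. It gave names, lengths and sequences, and matched 831 precursors. With these lengths 100% of 4986 values came out as whole reads (tolerance 0.01 reads), which gave read counts and totals. For 20 others the length was inferred from the values.

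The test of cKO minus control used limma 3.58.1 (R 4.3.3, eBayes with trend) on log2(RPKM + 1), which understates changes of low precursors, for the 461 precursors whose mean reached 10 RPKM, two-sided, with Benjamini-Hochberg adjustment and a threshold of 0.05. Exact permutation of the 6 libraries tested single values (p of 0.1 or more). Intervals used scipy 1.17.1, and figures matplotlib 3.10.9. The fit was checked on simulated data. The members and lists were chosen with earlier results of these data known. Named precursors were the members, 12 comparison miRNAs, list members, seed relatives, the 3 most alike and the neighbours in level. Alternatives covered pseudocount, filter, scaling, variance model, weights, voom on whole reads, leaving out single libraries and a replicate block.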

Additional observations from a re-analysis of the deposited data

How the results depend on the processing

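The rise of both members kept its direction and call under the other pseudocounts, filters, variance model, library weights, voom on whole reads and the replicate block. No call held under the other scalings, where mir-221 turned with quantile normalization and mir-222 with each but the totals without the 10 most abundant precursors. For mir-221 the log2 fold change was 0.030 with median-of-ratios scaling, 0.25 without the 10 most abundant precursors, 0.14 without the reads at mir-182 and -0.049 with quantile normalization. For mir-222 these values were -0.14, 0.088, -0.025 and -0.26. The first 3 of these divide control libraries by 0.735 to 0.884 and cKO libraries by 1.10 to 1.34. Without 1 library, mir-222 ranged from 0.52 to 0.76 and lost its call without cKO 2. After median-of-ratios scaling, an alternative added after seeing the data left out each library in turn, and mir-221 ranged from -0.12 to 0.19, negative without control 1 or cKO 3. The number of precursors that rose was 320 as deposited and 10, 57, 20 and 12 under these scalings in the same order. The number that fell was 8 as deposited and 46, 29, 36 and 29, 14 with library weights, 4 with the filter at 100 RPKM, and 4 to 12 without 1 library. The cause of the other changes was not tested. With the replicate block mir-221 was at 0.76 (limma adjusted p = 0.0017) and mir-222 at 0.60 (limma adjusted p = 0.0060), and the difference of their log2 ratio was -0.17. Same-numbered libraries share only a number: their deviations correlated at 0.19, 0.26 and 0.0093, and not every library correlated best with its own number. At 187 to 355 reads per member and library, counting error limits what can be seen of the balance of the members.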
